A study of Homo sapiens with 6 samples.

Results

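Selectins are lectins of endothelium, platelets and leukocytes that catch cells out of flowing blood by binding sialylated, fucosylated glycans such as sialyl Lewis x. Besides mucins, the proteins that can carry the glycan include sialomucins of blood and vessel cells and heavily N-glycosylated proteins of Golgi and lysosome membranes. The genes described here are the selectins SELE (E-selectin) and SELP (P-selectin) and the non-mucin carriers SELPLG, CD34, PODXL, GLG1, LAMP1 and LAMP2. They were found through the RefSeq transcript in each probe set's name, which gave 7 of the 8 genes and 8 of the 1259 probe sets of the array. LAMP2 had a pair of probe sets and GLG1, the Golgi protein known as E-selectin ligand 1, had no match and has no value here.

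The cells were HCT-15, an established human colon cancer line, either treated with 5-aza-2'-deoxycytidine, a cytosine analogue that blocks the upkeep of DNA methylation, or untreated. There were 3 arrays of each, and neither dose nor exposure time is stated in the labels. The submitters reported that treated cells displayed more sialyl Lewis x and bound more to E-selectin under flow, and asked which glycan-related genes change. All results come from this 1 line. The labels do not say whether replicates came from separate cultures, so the spread behind each p-value may be technical only.

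Each array gave a log2 value per probe set after RMA, and array medians lay between 5.81 and 5.92. The medians of the treated arrays averaged 0.07 above those of the untreated arrays, a difference that the main test left in place. Untreated replicate 3 has a title that says treated, against its source name and treatment entry. This array correlated at 0.9978 and 0.9982 with the other untreated arrays and at 0.9831 to 0.9844 with the treated ones, and the values of each member and the counts of each list are given with and without it. Of 14 colon epithelium markers 3 were measured: MUC13 and LGALS4 averaged 8.93 and 9.03 in treated cells, against 7.97 and 9.54 in untreated cells, and MUC2 averaged 5.67 in treated and 5.57 in untreated cells. Of 12 endothelial markers 6 were measured, with SELE and CD34 among them, while VWF and CDH5 were not matched. Their summed level, as log2, was 8.09 to 8.24 in treated and 8.39 to 8.56 in untreated cells, with ICAM2 lower and PECAM1 higher after treatment. The 8 measured of 16 platelet and leukocyte markers summed to 7.81 to 7.90 in treated and 7.71 to 7.80 in untreated cells, with CD33 higher and CD22 lower after treatment. For fibroblast markers, 4 of 9, the sums were 7.70 to 7.82 in treated and 7.41 to 7.69 in untreated cells. The brightest of these, BGN, averaged 7.45 in treated and 7.12 in untreated cells and weighs most in the sum. PDGFRB was lower after treatment (4.74 in treated, 5.22 in untreated cells), and DCN and LUM were dim and did not pass the test given below. All arrays came from the HCT-15 line, so these sums describe RNA levels within that line and do not count cells of other types. Whether these shifts bear on the values below was not tested.

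The drug acts at CpG dinucleotides, the sites of DNA methylation, so the promoters are shown first. RefSeq promoter sequences (250 bases before to 50 after the gene start) were matched for 4 of the 7 measured genes: SELE, SELP, CD34 and LAMP1. The 250 bases upstream of the start are printed for a CpG-poor, an intermediate and a CpG-rich gene, with each CG in capitals.
SELE (GRCh38.p14, chr1:169734080-169734329, minus strand): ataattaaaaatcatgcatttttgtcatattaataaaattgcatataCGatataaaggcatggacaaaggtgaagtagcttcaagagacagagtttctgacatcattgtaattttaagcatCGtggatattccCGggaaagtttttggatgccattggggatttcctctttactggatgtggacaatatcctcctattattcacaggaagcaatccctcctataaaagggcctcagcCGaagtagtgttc
CD34 (GRCh38.p14, chr1:207911126-207911375, minus strand): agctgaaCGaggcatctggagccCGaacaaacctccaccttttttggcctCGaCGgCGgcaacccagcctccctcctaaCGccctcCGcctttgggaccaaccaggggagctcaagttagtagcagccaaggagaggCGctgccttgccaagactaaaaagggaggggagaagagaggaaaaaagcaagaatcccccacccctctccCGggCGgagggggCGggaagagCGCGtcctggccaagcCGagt
LAMP1 (GRCh38.p14, chr13:113296989-113297238, plus strand): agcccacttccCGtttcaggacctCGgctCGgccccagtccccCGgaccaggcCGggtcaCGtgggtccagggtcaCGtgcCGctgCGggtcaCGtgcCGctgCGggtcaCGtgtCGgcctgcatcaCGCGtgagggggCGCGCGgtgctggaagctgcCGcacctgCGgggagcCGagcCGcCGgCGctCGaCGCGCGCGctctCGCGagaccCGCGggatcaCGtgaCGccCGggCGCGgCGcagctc

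Over the full 300 bases, the LAMP1 promoter held 49 CG dinucleotides and only 1.6% of the 27305 promoters in the table held as many. The CD34 promoter held 19, close to the median of 14 over all promoters and of 22 over the 727 promoters of genes on the array. The SELE promoter held 4 and the SELP promoter 1. At least as many were held by 74.7% of all promoters for SELE and by 95.8% for SELP. SELP thus lies toward the CpG-poor end and LAMP1 at the CpG-rich end, as the histogram of CG counts shows. SELE is less extreme, since 30.5% of all promoters held no more CG than it did. The methylation of these promoters in HCT-15 was not measured.

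**Figure D1:**
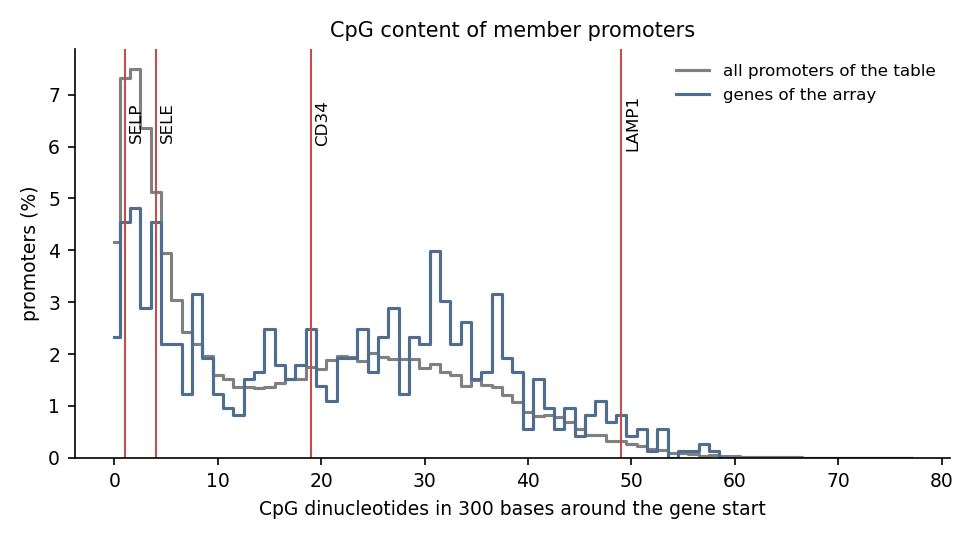
CG dinucleotides in 300 bases around the gene start (x axis, count) against the percentage of promoters (y axis), for genes of the array (blue) and all promoters of the table (grey). Red lines mark SELP (1), SELE (4), CD34 (19) and LAMP1 (49).

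The motif TCACGTG, searched on both strands with a palindromic TCACGTGA counted once, is the core of the element bound by TFEB, a regulator of lysosomal genes. It occurred 6 times in the LAMP1 promoter, 5 times wholly upstream of the start and once across it. Of all promoters 3.8% held it at least once and only 1 held it as often as LAMP1, namely LAMP1 itself. The SELE promoter held 1 match to the NF-kB consensus, 94 to 85 bases upstream of the start, and NF-kB is known to drive E-selectin in cytokine-treated endothelium. Of all promoters 7.4% held such a match. TATAAA, on either strand, occurred 2 times in the SELE promoter, 30 to 25 and 200 to 195 bases upstream of the start, and 12.0% of all promoters held it at any position. These matches are letters in a window and show no binding.

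Among the 727 array genes with a promoter, those with 31 to 58 CG had rises in 25.8% and falls in 20.8% of 236. Genes with 14 to 30 CG had rises in 19.1% and falls in 20.7% of 241, and genes with 0 to 13 had 13.6% and 12.4% of 250. A rise or fall here and below is an adjusted p under 0.05 in limma's test over all 1259 probe sets. These shares are a description of the array, with no test, and the signal level of the bins was not matched.

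Of the 8 probe sets of selectins and carriers, 2 rose and 1 fell after treatment, and 5 did not pass the test. LAMP1 and 1 of the LAMP2 probe sets were the rises, at 1.23-fold and 1.40-fold, and PODXL was the fall, 1.39-fold lower in treated cells. Over the whole array 34.8% of probe sets were called, 18.0% as rises and 16.8% as falls, so a share of 3 in 8 (37.5%) is near the background. The median log2 change of the 8 was 0.02, against -0.01 over all 1259 probe sets, and the median absolute change was 0.13, against 0.15. The groups did not overlap in the same 3 probe sets, against 46.1% of the array. No selectin probe set was called, and 0 of the 2 reached an unadjusted p under 0.05 in limma's test.

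**Figure D2:**
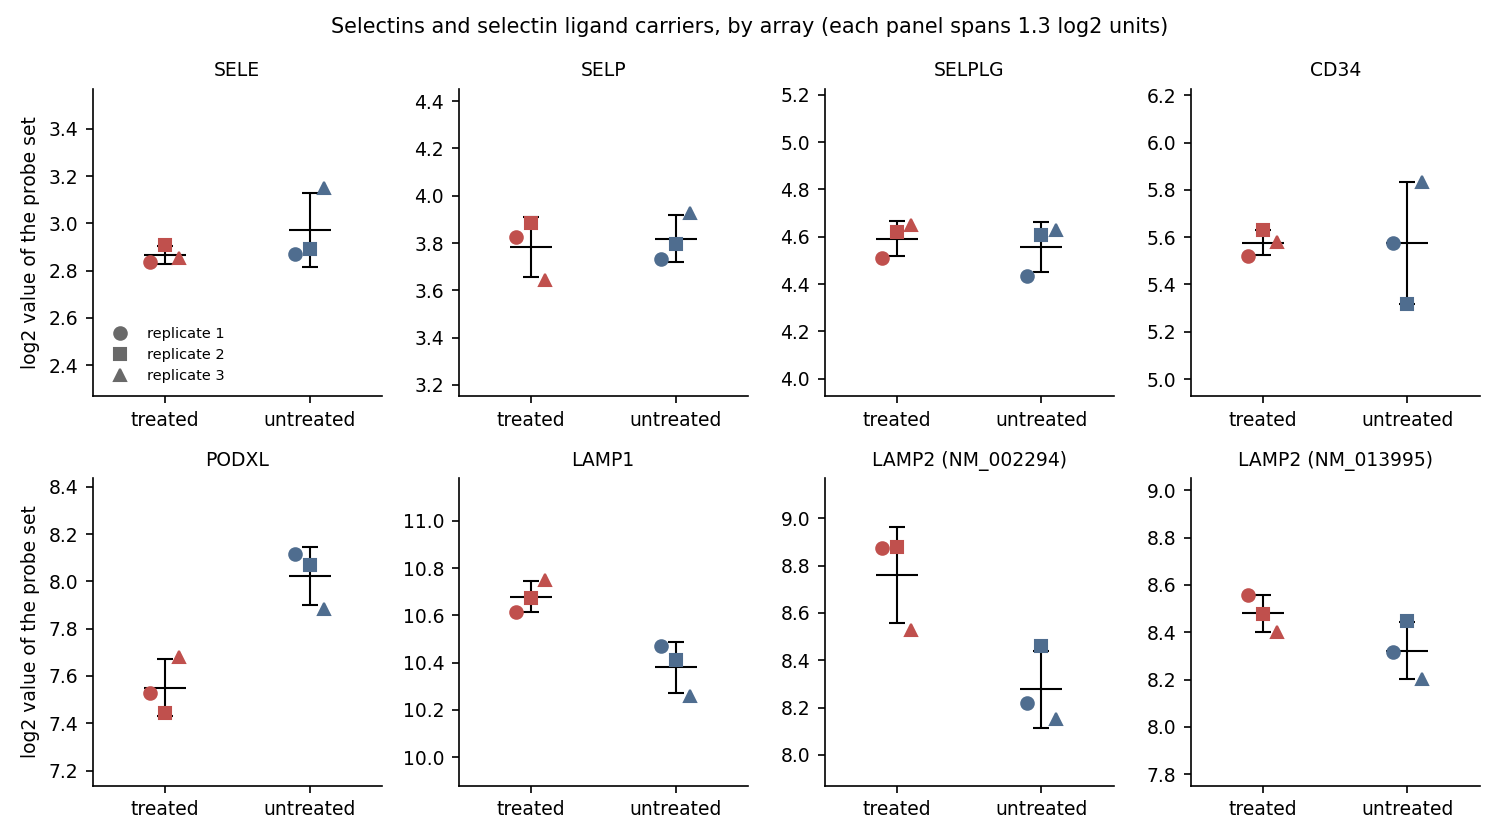
Log2 value (y axis) of each of the 8 probe sets on the treated (red, left) and untreated (blue, right) arrays, with the replicate shown by the symbol and mean ± SD (n = 3) in black. The groups separate for PODXL, LAMP1 and the LAMP2 probe set of NM_002294 and overlap for the other 5.

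SELE encodes E-selectin, the endothelial receptor that catches sialyl Lewis x in the submitters' flow assay. Its probe set read 2.83, 2.91 and 2.85 in treated cells, against 2.87, 2.89 and 3.15 in untreated cells. Untreated replicate 3 was the highest of the 6, and the groups overlapped. The log2 change was -0.11 ± 0.09 (SE, n = 3 each; 95% interval -0.30 to 0.09; limma adjusted p = 0.407). Without untreated replicate 3 it was -0.02 (adjusted p = 0.905). SELE was dim, with only 4.29% of probe sets no brighter on average, and no detection call is at hand to tell such a value from background.

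SELP encodes P-selectin, which platelets and endothelium store in granules and move to the surface when activated. Its values were 3.82, 3.89 and 3.64 in treated cells, against 3.73, 3.80 and 3.93 in untreated cells, and the groups overlapped. The log2 change was -0.03 ± 0.09 (95% interval -0.23 to 0.16; limma adjusted p = 0.827), and 17.0% of probe sets were no brighter on average. Without untreated replicate 3 the sign turned, at 0.02 (adjusted p = 0.906). The intervals thus allow a rise of at most 0.09 for SELE and 0.16 for SELP on the log2 scale at this level of confidence, at signals where RMA compresses differences.

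SELPLG encodes PSGL-1, the sialomucin of leukocytes that all selectins bind and whose sulfated tyrosines serve P-selectin. It read 4.51, 4.62 and 4.65 in treated cells, against 4.43, 4.61 and 4.63 in untreated cells, so the lowest array of each group was replicate 1 and the groups overlapped almost fully. The log2 change was 0.04 ± 0.08 (95% interval -0.14 to 0.21; limma adjusted p = 0.806), with 28.1% of probe sets at or below its mean level. With untreated replicate 3 left out it was 0.07 (adjusted p = 0.607). After quantile normalization its sign turned (-0.05), as it did after median centring (-0.03), both far from the threshold.

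CD34 encodes the sialomucin of blood stem cells and vessel walls that carries selectin ligands in lymph node venules. Treated arrays lay close together at 5.52, 5.63 and 5.58, against 5.58, 5.32 and 5.84 in untreated arrays. The treated values fell inside the untreated range, and both means were 5.58. The 95% interval of the log2 change ran from -0.25 to 0.25 (limma adjusted p = 0.9998), the widest of the 8, and the untreated SD was 0.26, against a median of 0.09 over all probe sets. Without untreated replicate 2 the log2 change was -0.13 and without untreated replicate 3 it was 0.13, neither of which passed the test.

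PODXL encodes podocalyxin, a sialomucin of the CD34 family that lines podocytes and vessels, also occurs on carcinoma cells and can carry selectin ligands. Its values were 7.53, 7.44 and 7.68 in treated cells, against 8.11, 8.07 and 7.88 in untreated cells. All treated arrays lay below all untreated ones, and replicate 3 of each group stood nearest to the other group. PODXL fell by 0.47 on the log2 scale (SE 0.09, n = 3 each, 95% interval -0.67 to -0.27, 1.39-fold lower, limma adjusted p = 0.00179). Without untreated replicate 3 it fell by 0.54 (adjusted p = 0.00118). Only 8.34% of probe sets had a change as low or lower.

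PODXL2, which encodes endoglycan, is the other relative of CD34 on the array, and was picked for its family after its values were seen. It read 6.81, 7.06 and 6.90 in treated cells, against 7.71, 7.53 and 7.46 in untreated cells, again with no overlap. The log2 change was -0.64 ± 0.09 (1.56-fold lower, limma adjusted p = 0.000269), and without untreated replicate 3 it was -0.70. Of the 3 CD34-family sialomucins, PODXL and PODXL2 fell and CD34 did not pass the test, on an array where 16.8% of probe sets fell. So few genes, grouped with their values known, give no result about the family.

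LAMP1 encodes the lysosome-associated membrane protein 1, a lysosomal limiting-membrane protein that carries many N-glycans with polylactosamine, reaches the surface of some tumour cells and there can present sialyl Lewis x to E-selectin. It read 10.62, 10.68 and 10.75 in treated cells, against 10.47, 10.41 and 10.26 in untreated cells. All treated arrays lay above all untreated ones, with means of 10.68 in treated and 10.38 in untreated cells. LAMP1 rose by 0.30 ± 0.08 (SE, n = 3 each; 95% interval 0.12 to 0.48; 1.23-fold; limma adjusted p = 0.0121). Without untreated replicate 3 the rise was 0.24 (adjusted p = 0.0417), after median centring 0.23 (adjusted p = 0.0497), and in an ordinary equal-variance test of each probe set the adjusted p = 0.0542 missed the threshold. The signal is bright, with 90.1% of probe sets at or below its mean.

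LAMP2 encodes the sister protein, which also carries polylactosamine. Its transcripts end in alternative last exons that encode different membrane-spanning and cytosolic tails: NM_002294 gives LAMP-2A, the receptor of chaperone-mediated autophagy, and NM_013995 gives LAMP-2B. Which exons the probes cover is not stated. The NM_002294 probe set read 8.88, 8.88 and 8.53 in treated cells, against 8.22, 8.46 and 8.15 in untreated cells. Treated replicate 3 lay just above untreated replicate 2, so the groups were separate by a narrow margin. This probe set rose by 0.48 ± 0.11 (SE, n = 3 each; 95% interval 0.23 to 0.74; 1.40-fold; limma adjusted p = 0.00646). Without untreated replicate 3 the rise was 0.42 (adjusted p = 0.0251), and in the ordinary test the adjusted p = 0.0948 missed the threshold. Its SDs of 0.20 in treated and 0.16 in untreated cells were above the array's medians of 0.09 and 0.09.

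The NM_013995 probe set read 8.56, 8.48 and 8.40 in treated cells, against 8.32, 8.45 and 8.20 in untreated cells, and the groups overlapped through untreated replicate 2. Its log2 change was 0.16 ± 0.08 (95% interval -0.03 to 0.34; limma adjusted p = 0.176), and after quantile normalization 0.22 (adjusted p = 0.0315), past the threshold. After median centring it was 0.09 (adjusted p = 0.468) and without untreated replicate 3 it was 0.10 (adjusted p = 0.44), so the size of this change depends on the scaling and on that array. Treated replicate 3 was the lowest treated and untreated replicate 2 the highest untreated array on both LAMP2 probe sets. The value of NM_002294 minus that of NM_013995 was 0.32, 0.40 and 0.12 on the treated arrays, against -0.10, 0.02 and -0.05 on the untreated arrays. That difference was thus larger on all 3 treated arrays than on any untreated one, by 0.33 on average. An exact two-sided permutation test over the arrays gave p = 0.1, the smallest that 20 regroupings allow, so this test could not reach 0.05 and does not settle whether the LAMP2 probe sets differ in response. This comparison was chosen after the values were seen.

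**Figure D3:**
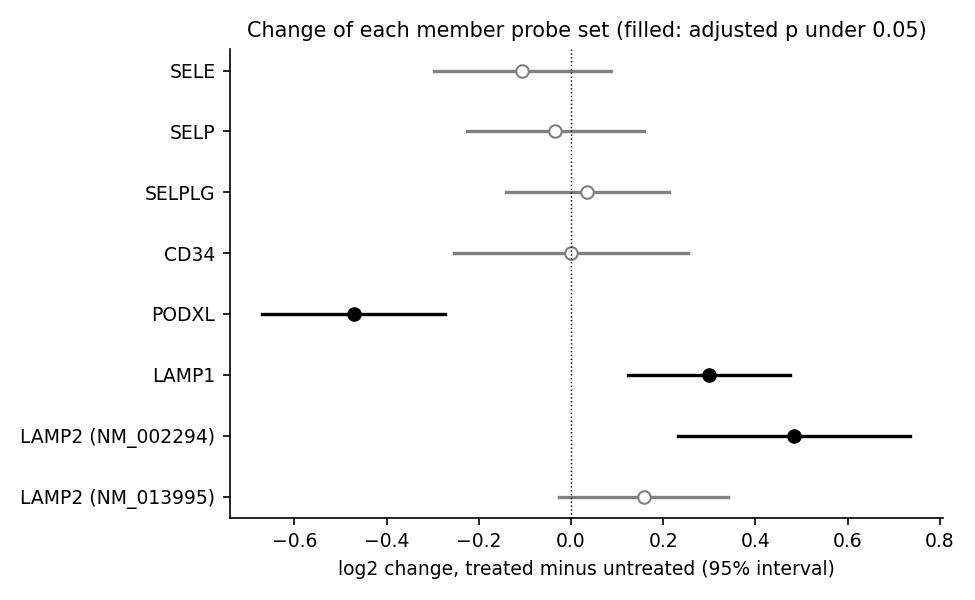
Log2 change, treated minus untreated (x axis), of each probe set with its 95% interval from limma's fit (3 arrays per group). Filled black points passed the test: PODXL at -0.47, LAMP1 at 0.30 and LAMP2 (NM_002294) at 0.48, while the intervals of the other 5 include 0.

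LAMP3, the family member known from mature dendritic cells and induced under endoplasmic reticulum stress, was measured too. It read 8.13, 8.04 and 8.14 in treated cells, against 7.19, 7.26 and 6.94 in untreated cells, well apart. LAMP3 rose by 0.97 ± 0.09 on the log2 scale (1.96-fold, limma adjusted p = 1.25e-05), and by 0.88 without untreated replicate 3. LAMP1, LAMP3 and the NM_002294 probe set of LAMP2 thus rose, while the NM_013995 probe set of LAMP2 did not pass the test. Of 27 lysosomal genes measured among 34 listed, LAMP3 included, 7 rose, 6 fell and 14 did not pass the test, on an array where 18.0% of probe sets rose and 16.8% fell. Their median log2 change was -0.11, against -0.01 over all probe sets. There were 7 rises and 8 falls without untreated replicate 3, and after median centring 7 rises and 11 falls. NEU1, the lysosomal sialidase, had the smallest p of the list and was 1.96-fold higher, though its probe set may bind other transcripts. The Fabry disease enzyme gene GLA (0.49 ± 0.07) rose, whereas the Pompe disease enzyme gene GAA (-0.76 ± 0.16) fell. These last 2 were chosen after their values were seen.

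**Figure D4:**
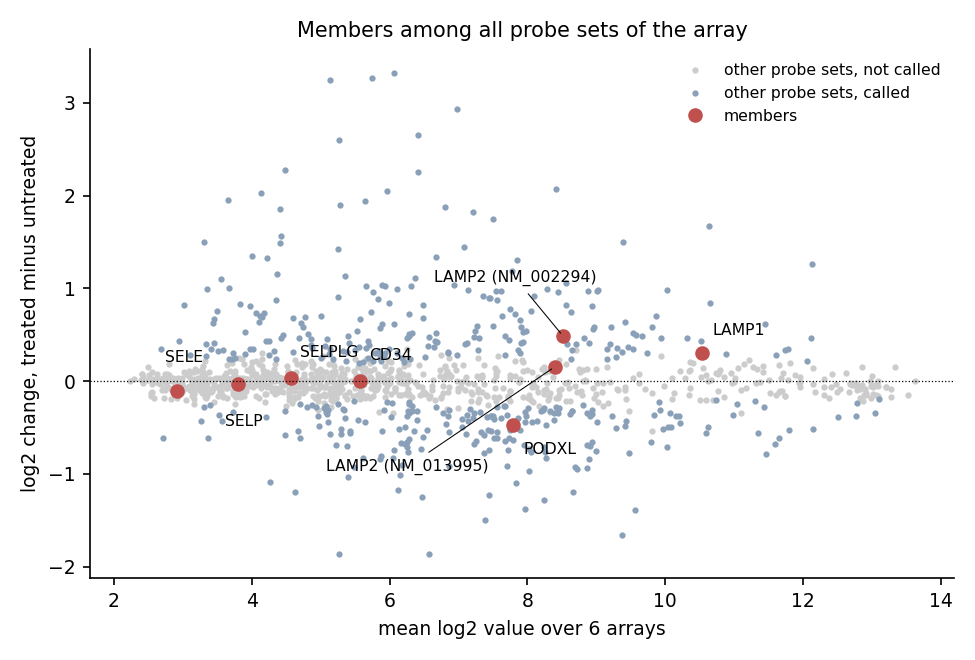
Log2 change, treated minus untreated (y axis), against mean log2 value over the 6 arrays (x axis) for all 1259 probe sets. Selectins and carriers (red) lie between -0.47 and 0.48, while other probe sets reach beyond 3.

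Lists of related genes place these values in their pathway, beside an array on which 18.0% of probe sets rose and 16.8% fell. The list of other selectin and carrier genes had 12 of 21 measured, of which 5 rose, 2 fell and 5 did not pass the test (median log2 change 0.17, against -0.01 over all probe sets). The rises were VCAN, a chondroitin sulfate proteoglycan that binds P-selectin (3.25 ± 0.18, from 3.50 in untreated cells), MUC1, MUC13, LAMP3 and CD44. CD44 was dim, at 3.76 in treated and 3.13 in untreated cells, with only 11.9% of probe sets at or below its mean. The falls were PODXL2 and TNFRSF25, a death receptor described as an E-selectin ligand on colon cancer cells (-0.52 ± 0.12). There were likewise 5 rises and 2 falls without untreated replicate 3. Without the dimmest 33.3% of probe sets, CD44 among them, there were 4 rises and 2 falls.

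Sulfation of selectin ligands was measured through 6 genes, of which 3 rose, 0 fell and 3 did not pass the test, with a median log2 change of 0.28. Among so few genes, and with falls in 16.8% of the array, 0 falls is close to what the array as a whole gives. There were 4 rises and 0 falls without untreated replicate 3. At an unadjusted p under 0.05 there were also 0 falls, while quantile normalization gave 1. TPST1, a tyrosylprotein sulfotransferase of the kind that sulfates PSGL-1, read 7.93, 7.93 and 7.91 in treated cells, against 7.44, 7.44 and 7.42 in untreated cells. The arrays of each group nearly coincided, and TPST1 rose by 0.49 ± 0.06 (1.40-fold, limma adjusted p = 0.000157). TPST2, its isoenzyme, read 7.34, 7.45 and 7.22 in treated cells, against 6.95, 6.95 and 6.88 in untreated cells (log2 change 0.41 ± 0.08, adjusted p = 0.00197). CHST2, which sulfates the GlcNAc of selectin ligands, rose by 0.32 ± 0.08 (adjusted p = 0.0092), from a dim signal with only 12.8% of probe sets at or below its mean. PSGL-1 itself, the best known substrate of the tyrosylprotein sulfotransferases among the genes here, did not pass the test, as given above.

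Of the 12 genes of sialyl Lewis x assembly 2 rose and 4 fell (median log2 change -0.08; 3 and 4 without untreated replicate 3), the smallest p among them being those of ST3GAL3 and GCNT1, both lower in treated cells. Among genes of leukocyte and endothelial adhesion 6 of 15 were measured, with 1 rise and 2 falls (median -0.02), also without untreated replicate 3. ICAM2, an integrin ligand of endothelium, was 1.53-fold lower and ICAM3, an integrin ligand of leukocytes, 1.27-fold lower. The rise was PECAM1, a junction protein of endothelium and platelets (0.30 ± 0.10, limma adjusted p = 0.0403), whose groups overlapped. Its call was lost after median centring and when any 1 of the arrays other than untreated replicate 3 and treated replicate 2 was left out.

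**Figure D5:**
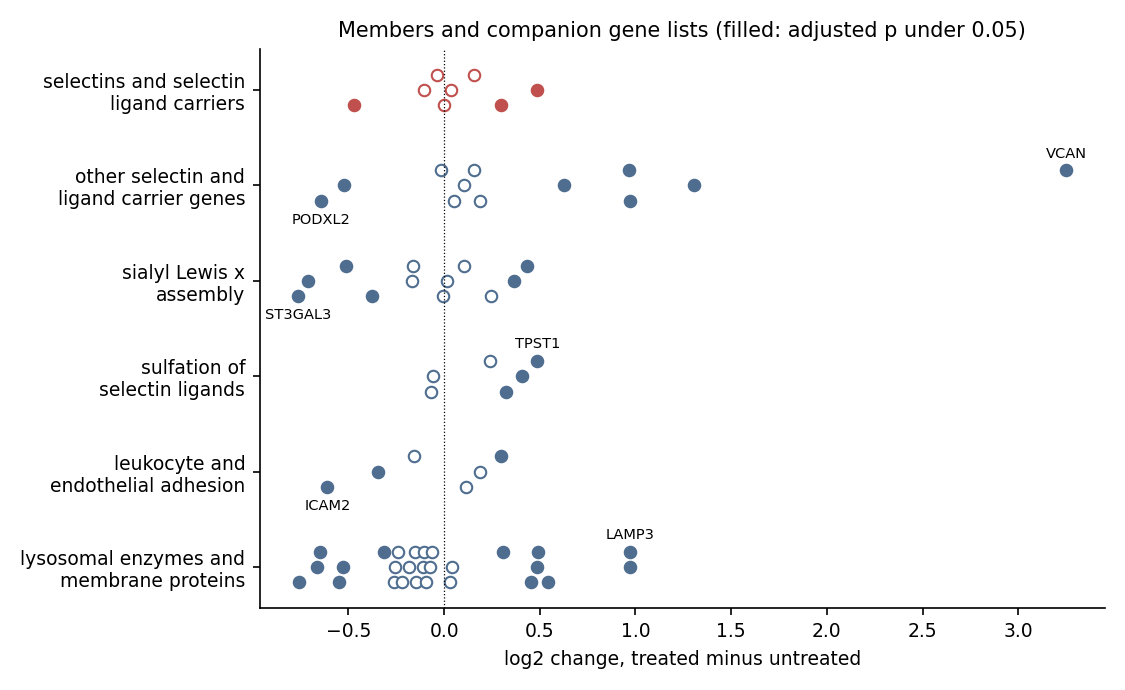
Log2 change, treated minus untreated (x axis), of the 8 probe sets (red) and of the measured genes of each related list (blue, 1 point per gene). Filled points passed the test. Among the red points the filled ones lie at -0.47, 0.30 and 0.48, and VCAN at 3.25 is farthest from 0.

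The genes most like each called member over the 6 arrays were found by Pearson's r among other named genes. The arrays form only the treated and the untreated group, so r mostly reflects the size of the treatment difference beside the spread. For PODXL they were the glypican GPC4 (r = 0.992), the glycolytic enzyme GPI (0.991) and the O-mannosyltransferase POMT1 (0.991). Of 1042 probe sets compared, 105 reached 0.9. For LAMP1 the genes were the galectin LGALS14 (0.991), the syndecan SDC4 (0.978) and the chemokine XCL2 (0.978), with 54 of 1042 at 0.9 or above. For LAMP2 (NM_002294) the genes were the transcription factor YY1 (0.994), the transporter family member SLC35F5 (0.991) and UXS1, which makes UDP-xylose (0.987). Here 57 of 1041 reached 0.9. LGALS14 was dim, at 3.35 in treated and 3.22 in untreated cells, and did not pass limma's test (adjusted p = 0.156), while the other 8 did.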

How the data were processed

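Biotin-labelled cRNA from total RNA of HCT-15 was hybridised to 6 Affymetrix arrays, per the labels' protocols. The deposited table holds the authors' log2 values, a column per array, made with RMA per the submitters' processing notes. RMA corrects background, normalizes between arrays and summarises probes, so it compresses differences at low signal. The log2 scale was taken from the range, 2.13 to 13.67. The array platform, its genome build and any detection calls are not stated. The number of arrays limits the precision.

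Probe sets were named through the RefSeq transcript in their name (table GRCh38.p14, versions ignored), which gave 1043 of 1259 probe sets and 927 genes. The remaining 216 entered the test unnamed. In R 4.3.3 with limma 3.58.1, treatment was the only term of a linear model over all probe sets and all 6 arrays (lmFit, eBayes with default prior, two-sided, Benjamini-Hochberg), and a probe set with adjusted p under 0.05 was called. Errors of log2 changes are SEs of this fit. All probe sets of the members are given. In lists, the probe set with the highest mean stood for a gene, and the named genes were the 2 calls of smallest p per list, the 3 genes most like each called member, and small counts. The members and lists were chosen with earlier results of these data known. The steps were tested on simulated data. Replicate numbers were not used as pairs in the main test. Deviations from the group means correlated at -0.27, 0.04 and -0.11 for same-numbered arrays, and at -0.33 to 0.42 for differently numbered ones. These correlations cannot show how the arrays were laid out, so structure shared across the groups was not tested.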

Additional observations from a re-analysis of the deposited data

How the results depend on the processing

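PODXL was lower in treated cells and called in all 13 alternatives to its test (log2 change -0.54 to -0.40, adjusted p up to 0.0379). LAMP1 (0.23 to 0.34) and LAMP2 NM_002294 (0.42 to 0.60) were higher in all 13 and called in 12, the exception being the ordinary equal-variance test (log2 changes 0.30 and 0.48, adjusted p = 0.0542 and 0.0948), which left 0 member rises (2 at an unadjusted p under 0.05). An adjusted p under 0.01 left 1 member rise. LAMP2 NM_013995 was called only after quantile normalization (0.22) and ranged from 0.09 to 0.22. The sign of genes near 0 turned: SELP with array weights (0.0229), SELPLG after quantile normalization (-0.0471) and median centring (-0.0318), and CD34 in the same order (-0.0539 and -0.0671). With 1 array left out, SELP ranged from -0.0852 to 0.0367, SELPLG from -0.0262 to 0.0772 and CD34 from -0.13 to 0.13. With the replicate block the members kept 2 rises and 1 fall, with log2 changes of 0.30, 0.48 and -0.47, and the array had 209 rises and 185 falls. Over the array, median centring gave 197 rises and 311 falls and quantile normalization 220 and 265, against 227 and 211.

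Sialyl Lewis x assembly had 1 rise after quantile normalization, without the dimmest 33.3% of probe sets, in the ordinary test and at an adjusted p under 0.01, and 1 to 3 with an array left out (1 without untreated replicate 2). The sulfation list had 1 fall after quantile normalization. The adhesion list had 0 rises after median centring, in the ordinary test and under 0.01 (1, 0 and 2 at an unadjusted p under 0.05), 2 under 0.10, and 0 to 1 with an array left out. Lysosomal falls numbered 11 after median centring, and the other carriers had 1 fall in the ordinary test. The cause of these shifts was not tested. SELE, SELP and SELPLG lie among the dimmest 33.3% and were not tested without it. Signal over background could not be judged for them.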
